A study of Mus musculus with 44 samples.

Results

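NU7441 is a small molecule inhibitor of DNA-PKcs, and its effect on chromosome translocations was read from 6 of the 44 samples of the series, 3 libraries from cells given NU7441 and 3 from cells given the vehicle DMSO. They were chosen by their labels, and each treated library was set against the control of the same replicate number. All 6 libraries came from mouse embryonic fibroblasts (MEFs) labelled wild type and C57BL/6, which carry an inducible AsiSI endonuclease. Expression of the enzyme was induced with 3 µg/ml doxycycline for 24 h, and 1 µg/ml 4-hydroxytamoxifen (4OHT) sent it to the nucleus for the last 6 h, in treated and control cells alike. NU7441 was added at 10 µM, starting 1 h before damage. The study describes its replicates as biological, and the labels do not say which cultures they came from. Age and sex of the embryos were not given in the sources used here.

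A double-strand break can be rejoined in several ways. In classical non-homologous end joining, Ku binds the ends, recruits DNA-PKcs, and the ends are ligated with little trimming. In alternative end joining the ends are resected and a few matching bases (microhomology) are paired before ligation. High-throughput genome-wide translocation sequencing (HTGTS) reads outward from one fixed bait break into whatever sequence, the prey, was joined to it, so that every junction shows how many bases each end lost, how many bases bait and prey share, and whether bases were inserted.

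AsiSI cuts inside an 8-base palindrome and leaves a 2-base 3′ overhang. The bait break lay at chr2:13271321 (mm10). The sequences below show the bait, the AsiSI site that gave most prey, which lies in a coding exon of Arhgap11a (ENSMUSG00000041219), and the kinds of join described in the text. Capitals mark the AsiSI motif or what was left of it, and in the last sequence the telomeric repeat. All are written 5′ to 3′ on the strand read from the bait.
Bait, chr2:13271306-13271335: accctgtcccaGCGATCGCgcaggcgcaca
Prey site, chr2:113847983-113848012: tcatgtctcctGCGATCGCactgaccgcgg
Join restoring the motif: accctgtcccaGCGATCGCactgaccgcgg
Join of both ends trimmed flush: caccctgtcccaGCGCGCactgaccgcggc
Join to telomeric repeat: cctgtcccagcgCTAACCCTAACCCTAACC
The motif-restoring join between these 2 loci stood in 12 reads of the 6 libraries, and the flush join, which lacks the 2 overhang bases, in 6. The telomeric join was the most frequent of its form in NU7441 replicate 2, with 8 reads.

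The libraries differed widely in depth. The NU7441 libraries held 2272, 1331 and 6675 junctions in replicates 1, 2 and 3, and their controls held 5380, 2612 and 18428. Replicates 1 and 2 were sequenced in one run and replicate 3 in another. Junctions called proximal lay less than 500 bp from one of the other AsiSI motifs, and numbered 1036, 540 and 5260 with NU7441 and 2357, 1746 and 11669 in the controls. The NU7441 library was thus the shallower in all 3 pairs. Raw junction numbers carry no common scale between libraries, so shares were compared. With 3 pairs, the exact two-sided sign-flip test cannot give a p below 0.25, and no share compared over these pairs could pass a threshold of 0.05.

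The share of proximal junctions that kept one intact AsiSI motif was higher with NU7441 in all 3 pairs. It was 51.6%, 61.9% and 16.2% in NU7441 replicates 1 to 3 and 25.1%, 26.7% and 10.2% in their controls. Replicate 3 was low in both arms, and the groups overlapped. The mean log2 ratio was 0.97 ± 0.28 (SD, n = 3 pairs), a 1.96-fold higher share (exact sign-flip test, p = 0.25). By counting error alone the 95% Wilson intervals were 48.6% to 54.7% against 23.4% to 26.9% in replicate 1, and 15.3% to 17.2% against 9.68% to 10.8% in replicate 3.

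The exact overlap lengths describe these same joins, so they are not separate evidence of the difference. Bait and prey alignments that share the whole motif overlap by at least 8 bases, and by more where the next bases happen to match. An overlap of exactly 8 bases was found in 26.9%, 33.7% and 9.28% of proximal junctions with NU7441 and in 13.1%, 13.6% and 5.57% of those of the controls (mean log2 ratio 1.03 ± 0.29). Overlaps of 6 and 7 bases, too short to hold the motif, had mean log2 ratios of 0.07 ± 0.37 and 0.18 ± 0.21 as shares of all proximal junctions. Among proximal junctions with an overlap of 6 or more bases, 92.2%, 94.6% and 73.2% were motif-restoring with NU7441, against 83.9%, 87.5% and 70.1% in the controls. A long overlap was thus mostly the AsiSI motif itself in every one of the 6 libraries.

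**Figure D1:**
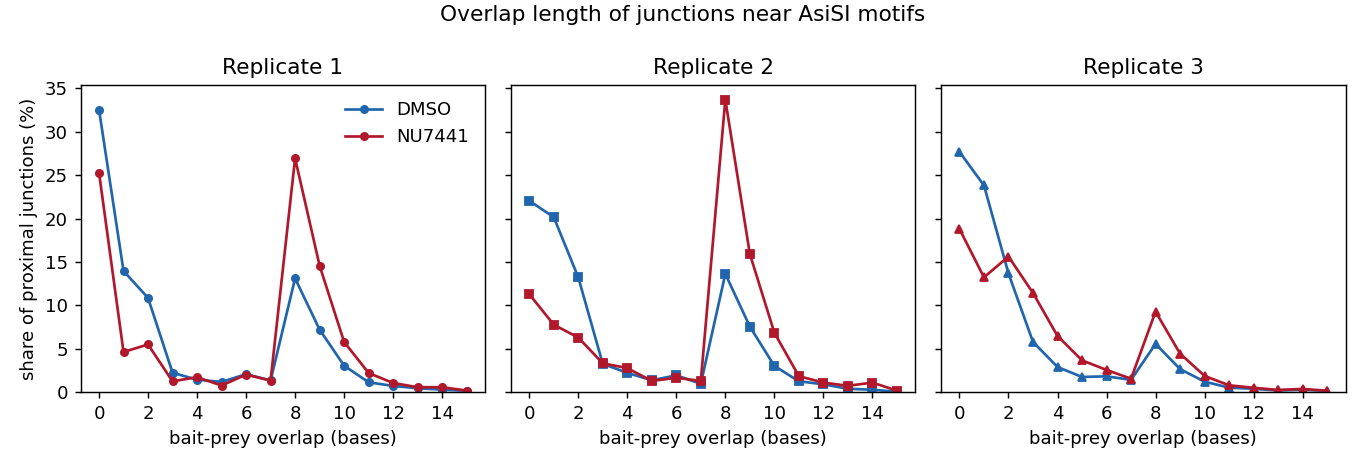
Share of proximal junctions (%, y axis) at each exact overlap of bait and prey from 0 to 15 bases (x axis), 1 panel per replicate, NU7441 in red and its DMSO control in blue. The peak at 8 bases is higher with NU7441 in all 3 replicates (26.9%, 33.7% and 9.28% against 13.1%, 13.6% and 5.57%), and the share at 1 base is lower.

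Depth moved with this result. Over the 10 vehicle and empty-vector libraries of the other experiments in these cells, the motif-restoring share was lower the more proximal junctions a library held (Pearson's r = -0.95, permutation p = 3e-05; Spearman's rho = -0.95, permutation p = 5e-05; both on log2 scales). Adjusted over the 9 measures related to depth in this way, these were 0.00027 and 0.00045, and r was -0.94 without the 2 libraries farthest from the median depth. The study's pipeline removes duplicate junctions. The NU7441 libraries held 1.22, 1.07 and 1.48 restoring joins per site end that had any, and the controls 1.27, 1.16 and 2.00. Of the site ends with any prey, 96.9%, 95.1% and 95.7% held a restoring join with NU7441, and 96.5%, 92.6% and 96.3% in the controls.

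The NU7441 libraries, which are shallower, thus had the higher share that lower depth goes with. The 10 other treated-control pairs of the series (6 with CK-666, 2 with wiskostatin and 2 with actin R62D) gave a line of log2 share ratio on log2 depth ratio with a slope of -0.38. The NU7441 pairs lay 0.59, 0.56 and 0.23 above that line, and the other pairs between -0.19 and 0.16 from it. This comparison was chosen after the values were seen, and the part of depth in the difference was not tested beyond it.

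**Figure D2:**
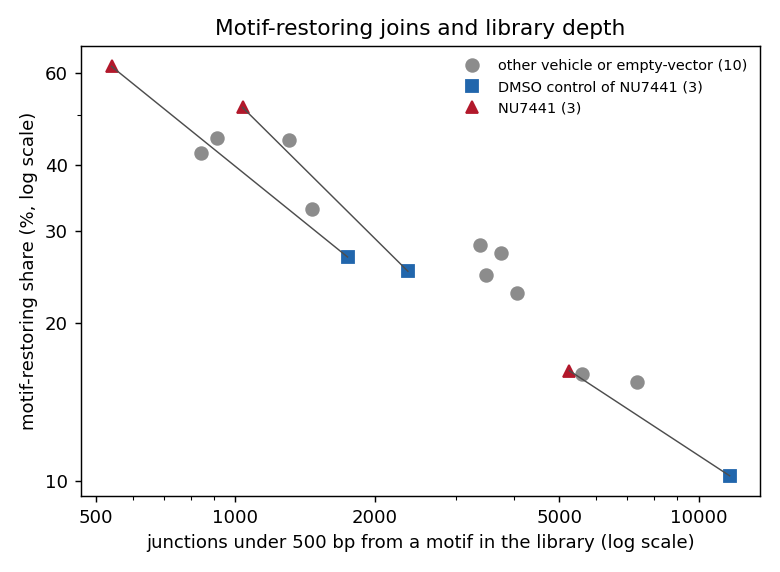
Share of proximal junctions that restored the motif (%, log scale) against the number of proximal junctions in the library (log scale). Each point is 1 library, and lines join the NU7441 library to the control of the same number. The share falls with depth over all libraries, and each NU7441 library lies to the left of its control, with fewer junctions.

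Thinning the deeper library of each pair to the depth of the other, and then counting identical junctions once, left a mean log2 ratio of 0.93. This random thinning takes junctions after duplicate removal, so it does not undo what duplicate removal did at the original depth.

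The remaining proximal junctions, 501, 206 and 4407 with NU7441 and 1765, 1279 and 10477 in the controls, were examined on their own. These measures were chosen after the values were seen. An overlap of a single base was less frequent with NU7441 in all 3 pairs. It made up 9.58%, 20.4% and 15.8% of these joins against 18.6%, 27.5% and 26.5% (mean log2 ratio -0.71 ± 0.27, exact sign-flip p = 0.25). Overlaps of 3 to 5 bases were more frequent in all 3 pairs, at 7.78%, 19.4% and 25.8% against 6.52%, 9.38% and 11.6% (mean log2 ratio 0.82 ± 0.49, exact sign-flip p = 0.25). The difference was small in replicate 1, whose 95% Wilson intervals, 5.75% to 10.46% and 5.46% to 7.76%, overlapped, and more than a doubling in replicate 3, where they were 24.5% to 27.1% and 11.04% to 12.3%. Overlaps of 6 or more bases that did not hold an intact motif were also more frequent in all 3 pairs, at 8.98%, 9.22% and 7.08% against 6.46%, 5.24% and 4.85% (mean log2 ratio 0.61 ± 0.18, exact sign-flip p = 0.25). Blunt joins went in no single direction within this set, at 52.3%, 29.6% and 22.4% against 43.5%, 30.1% and 30.8% (mean log2 ratio -0.07 ± 0.36).

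The controls of NU7441 themselves stood apart from the 10 other vehicle libraries in some of these shares. An overlap of 1 base made up 16.1% to 24.4% in those 10, and control replicates 2 and 3 lay above that range. Overlaps of 3 to 5 bases made up 10.8% to 15.5%, and control replicates 1 and 2, with NU7441 replicate 1, lay below it. NU7441 replicates 2 and 3 lay above it. For overlaps of 6 or more without an intact motif the range was 6.18% to 10.6%, which held all 3 NU7441 libraries, while control replicates 2 and 3 lay below it.

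The relation of the 1-base and the 3 to 5 base shares to depth was computed in the 10 other vehicle libraries. Pearson's r was -0.22 for an overlap of 1 base (permutation p = 0.64, adjusted 0.659) and -0.56 for 3 to 5 bases (permutation p = 0.0897, adjusted 0.161). Spearman's rho was -0.14 (permutation p = 0.703, adjusted 0.791) and -0.49 (permutation p = 0.156, adjusted 0.234), and without the 2 libraries farthest in depth r was -0.03 and -0.69. The sign for 3 to 5 bases is that of a higher share in shallower libraries, and the part of depth in this difference was not tested further. Relative to the line over the 10 other pairs, the NU7441 pairs lay at -0.97, -0.49 and -0.75 for 1 base, and the other pairs between -0.34 and 0.41. For 3 to 5 bases they lay at 0.28, 1.06 and 1.17, and the other pairs between -0.13 and 0.25. For overlaps of 6 or more without an intact motif they lay at 0.47, 0.88 and 0.54, and the other pairs between -0.61 and 0.54. In the 10 other vehicle libraries this last share had Pearson's r of -0.53 with depth (permutation p = 0.116, adjusted 0.174). Spearman's rho was -0.54 (permutation p = 0.113, adjusted 0.203), and r was -0.83 without the 2 farthest. Over the 10 other pairs the relation had the other sign (r = 0.34). The part of depth was not tested further.

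**Figure D3:**
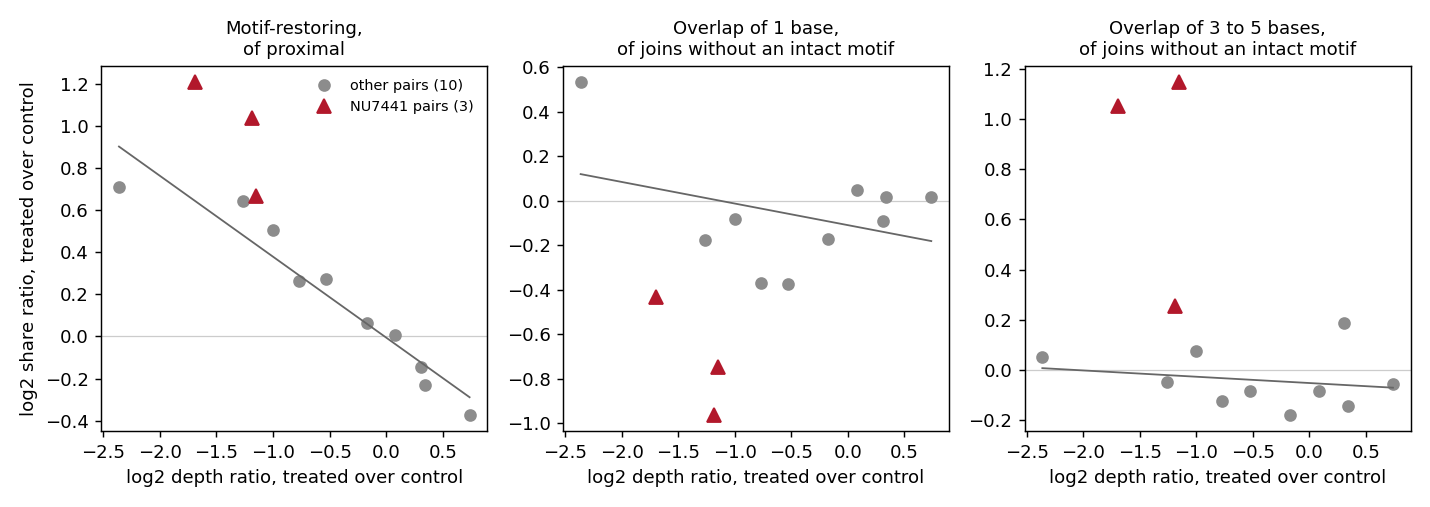
Log2 ratio of a share, treated over control (y axis), against the log2 ratio of proximal junctions, treated over control (x axis), for the 3 NU7441 pairs (red) and 10 pairs of the other treatments (gray), with the line fitted to the gray points. For an overlap of 1 base the NU7441 pairs lie at -0.97, -0.49 and -0.75 from the line, and for 3 to 5 bases at 0.28, 1.06 and 1.17.

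The 3 NU7441 pairs were also tested against the 6 pairs given CK-666, an inhibitor of the actin nucleator ARP2/3, in the same cells. The overlaps of 1 and of 3 to 5 bases and the joins flush at both ends were chosen among 10 measures. The choice was made after the values of these NU7441 pairs were seen, and the adjustment over 3 measures does not account for it. For an overlap of 1 base the mean log2 ratio was -0.71 with NU7441 and -0.03 ± 0.30 with CK-666 (exact permutation test, two-sided, p = 0.0119, adjusted over 3 measures 0.0179). For 3 to 5 bases it was 0.82 and -0.02 ± 0.15 (exact permutation p = 0.0119, adjusted 0.0179). The smallest p that 84 regroupings allow is 0.0119. With 1 NU7441 pair left out fewer regroupings remain, and the adjusted p of both was 0.0536 to 0.107. For the third measure, joins flush at both ends, the mean log2 ratio was 1.08 with NU7441 and 0.37 ± 0.76 with CK-666. This difference did not pass 0.05 (exact permutation p = 0.155, adjusted 0.155), and single CK-666 pairs lay between -0.32 and 1.79. For motif-restoring joins it was 0.97 with NU7441 and 0.20 ± 0.37 with CK-666 (exact permutation p = 0.0357, adjusted over 4 measures 0.0635). The log2 depth ratio of treated to control library was -1.19, -1.69 and -1.15 in the NU7441 pairs and lay between -2.36 and 0.34 in the CK-666 pairs.

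Losses were counted from the last double-stranded base after cutting. A loss of 0 means that the alignment stops at that base, and is called a flush end. A negative loss means that the alignment runs on into the overhang, the motif or sequence past it. Bases shared by bait and prey count for both ends, so a loss in a join with overlap is a minimum. Over all proximal junctions the median prey loss was -5, -5 and 0 bases with NU7441 and -1, -1 and 1 in the controls, and the median bait loss was -5, -5 and 0 against -1, -1 and 0. Prey losses of more than 10 bases made up 5.02%, 4.81% and 25.5% with NU7441 and 12.1%, 16.5% and 29.1% in the controls (mean log2 ratio -1.08 ± 0.81, exact sign-flip p = 0.25). Part of this was the larger share of restoring joins, which lose nothing. Without them the shares were 10.4%, 12.6% and 30.5% against 16.1%, 22.5% and 32.4% (mean log2 ratio -0.52 ± 0.39), lower in all 3 pairs, but by little in replicate 3. This share also followed depth in the 10 other vehicle libraries (Pearson's r = 0.78, permutation p = 0.00352, adjusted 0.00792; Spearman's rho = 0.83, permutation p = 0.00449, adjusted 0.0101; r = 0.81 without the 2 farthest). Prey losses of more than 50 bases made up 1.45%, 0.56% and 5.53% with NU7441 and 3.65%, 1.89% and 5.38% in the controls, and went in no single direction. Proximal prey end at 500 bp from a motif, so longer losses were not counted. Prey 500 bp to 10 kb from a motif made up 3.79%, 1.54% and 10.6% of junctions away from the bait with NU7441. In the controls they made up 3.74%, 4.22% and 18.8% (mean log2 ratio -0.76 ± 0.74). Whether these prey were resected ends was not tested.

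At the bait end the read allows no loss above 13 bases in any of the 6 libraries, so longer resection of the bait was not measurable. Among joins without an intact motif, bait losses of more than 5 bases made up 8.18%, 19.4% and 24.7% with NU7441 and 11.6%, 28.9% and 28.7% in the controls (mean log2 ratio -0.43 ± 0.19). Flush ends, counted at any overlap, were more frequent with NU7441 on both sides. Prey ends were flush in 35.9%, 21.8% and 15.4% of these joins against 27.1%, 15.6% and 11.6%, and bait ends in 42.5%, 26.2% and 23.5% against 31.6%, 18.2% and 17.4%. The mean log2 ratios were 0.43 ± 0.05 and 0.46 ± 0.05, the narrowest spread over pairs among these end states. Both shares include the joins flush at both ends, so they are not separate, and their relation to depth was not computed. Joins flush at both ends and without overlap were 2.11-fold more frequent, at 19.4%, 7.77% and 4.79% against 9.46%, 3.91% and 2.08% (mean log2 ratio 1.08 ± 0.11). Over the 10 other pairs this share ratio was higher where the depth ratio was lower (r = -0.80, slope -0.64). At the depth ratios of the NU7441 pairs that line stood at 0.86, 1.19 and 0.84, and their log2 ratios were 1.03, 0.99 and 1.20. The NU7441 pairs thus lay at 0.17, -0.20 and 0.36 from the line, inside the range of the other pairs (-0.85 to 0.67). The part of depth in this difference was not tested further. Over the 10 other vehicle libraries the share of flush joins had Pearson's r of -0.22 with depth (permutation p = 0.551, adjusted 0.659) and Spearman's rho of -0.38 (permutation p = 0.281, adjusted 0.361), and r was 0.04 without the 2 farthest.

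**Figure D4:**
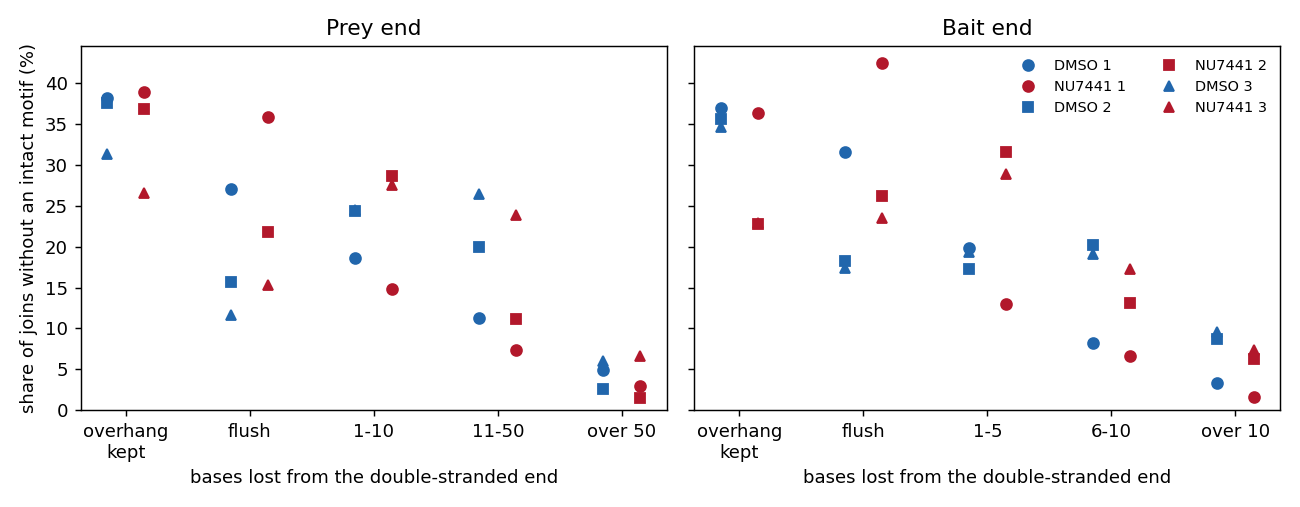
Share of proximal joins without an intact motif (%, y axis) by the bases lost at the prey end (left) and the bait end (right), 1 point per library, NU7441 in red and DMSO in blue, with a marker shape per replicate. Flush ends, counted at any overlap and with joins flush at both ends included, are more frequent with NU7441 in all 3 replicates on both sides.

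Over all junctions more than 10 kb from the bait, blunt joins were less frequent with NU7441 in all 3 pairs (mean log2 ratio -0.52 ± 0.29) and overlaps of 6 or more bases more frequent (0.69 ± 0.37, 0.93 without telomeric prey). Both classes hold the restoring joins in their total, and at AsiSI sites blunt joins had no single direction once these were left out, as given above. Overlaps of 6 or more bases were less frequent in deeper libraries among the 10 other vehicle libraries (Pearson's r = -0.92, permutation p = 0.00016, adjusted 0.00048). Relative to the line over the 10 other pairs, the NU7441 pairs lay at 0.55, -0.28 and 0.48 for this class. The other pairs lay between -0.21 and 0.34, and the part of depth was not tested further. Insertions went in no single direction, at 19.4%, 22.9% and 8.92% against 22.3%, 13.3% and 9.56% (mean log2 ratio 0.16 ± 0.54), and at -0.06 without telomeric prey. Among proximal junctions insertions were less frequent in all 3 pairs, at 4.83%, 1.85% and 8.61% against 7.81%, 7.10% and 9.80% (mean log2 ratio -0.94, exact sign-flip p = 0.25). The NU7441 counts behind these were 50, 10 and 453 junctions. Among joins without an intact motif, insertions made up 9.98%, 4.85% and 10.3% against 10.4%, 9.70% and 10.9%, with log2 ratios of -0.06, -0.998 and -0.09, so that only replicate 2 differed by much. Of the prey away from AsiSI sites, 24.7%, 19.9% and 4.41% with NU7441 and 25.8%, 20.8% and 3.65% in the controls had more than 5% mismatched bases, which set replicate 3 apart in both arms. Inserted stretches had a median of 7, 7 and 3 bases with NU7441 and 5, 6 and 2 in the controls, over all prey. The mean difference was 1.33 ± 0.58 bases, and 2.0 ± 1.0 without telomeric prey. Insertions of 5 to 9 and of 10 to 30 bases were more frequent in all 3 pairs (mean log2 ratios 0.37 ± 0.54 and 0.33 ± 0.37). Without telomeric prey these ratios were 0.17 and 0.22, and with proximal prey alone -0.71 and -0.81. Insertions of 1 base and of 2 to 4 bases went in no single direction.

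One library stood apart. In NU7441 replicate 2, 527 of 1300 junctions away from the bait, 40.5%, read into at least 3 units of the telomeric repeat. The shares in NU7441 replicates 1 and 3 were 1.66% and 0.49%, and in the controls 1.09%, 1.11% and 0.42%. The 527 junctions were placed on 21 chromosomes in 184 windows of 10 kb, with no more than 28 in a window, and all 527 read the C-rich strand away from the bait, as did 49 of 50 in control replicate 1 and 71 of 74 in control replicate 3. None lay within 500 bp of an AsiSI motif, so every proximal measure above was the same without them.

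The prey classes differed with and without telomeric prey. Proximal prey made up 53.7%, 41.5% and 82.9% with NU7441 and 51.6%, 71.5% and 66.8% in the controls. Without telomeric prey these were 54.6%, 69.9% and 83.3% against 52.2%, 72.3% and 67.04%, and the mean log2 ratio turned from -0.14 to 0.11. Distal prey, more than 10 kb from a motif, were 56.9% in NU7441 replicate 2 and 27.6% without telomeric prey, against 24.3% and 23.4% in its control. The mean log2 ratio of distal prey turned from 0.01 to -0.35. Prey on chromosome 2, the bait's own, made up 23.5%, 16.8% and 28.5% with NU7441 and 23.2%, 27.6% and 24.3% in the controls, with no single direction.

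END-seq, which sequences the ends of breaks, ranks the other AsiSI sites by how much they are cut; only the rank of the study's END-seq signal was used. Proximal junctions moved away from the strongest sites with NU7441. The 50 strongest sites took 34.4%, 31.3% and 26.6% of proximal junctions with NU7441 and 45.4%, 46.9% and 38.5% in the controls, and the groups did not overlap (mean log2 ratio -0.51 ± 0.09, exact sign-flip p = 0.25, adjusted over 5 rank classes 0.417). The 100 sites after the first 100 took 29.2%, 29.6% and 31.7% against 22.5%, 21.9% and 25.8% (0.37 ± 0.07), and the 200 sites after those took 14.6%, 12.8% and 17.5% against 8.82%, 8.82% and 10.7% (0.66 ± 0.11). The second 50 sites and the weakest 708 sites differed by less than their spread, with mean log2 ratios of 0.04 ± 0.17 and -0.05 ± 0.18. Without restoring joins the ratio of the 50 strongest sites was -0.39. The values of the other rank classes hold the restoring joins, whose share was higher with NU7441. These joins numbered 1.07 to 2.00 per site end that had any, and their part in the other rank classes is not given here.

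In the 10 other pairs the log2 ratio of the 50 strongest sites lay between -0.14 and 0.17, and in the NU7441 pairs at -0.40, -0.58 and -0.54. Against the 6 CK-666 pairs, whose mean was 0.06, the exact permutation p was 0.0119, the smallest that 84 regroupings allow. Over the 10 other vehicle libraries this share had Pearson's r of -0.51 with depth (permutation p = 0.131) and Spearman's rho of -0.43 (permutation p = 0.217), and r was -0.02 without the 2 libraries farthest in depth. Among joins without an intact motif the relation to depth was stronger (Pearson's r = -0.83, permutation p = 0.00161; Spearman's rho = -0.84, permutation p = 0.00371; r = -0.68 without the 2 farthest), with higher shares of the strongest sites in shallower libraries. In these joins the NU7441 pairs had log2 ratios of -0.17, -0.47 and -0.54, and the other pairs lay between -0.10 and 0.26. This comparison with other pairs was added after the values were seen.

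**Figure D5:**
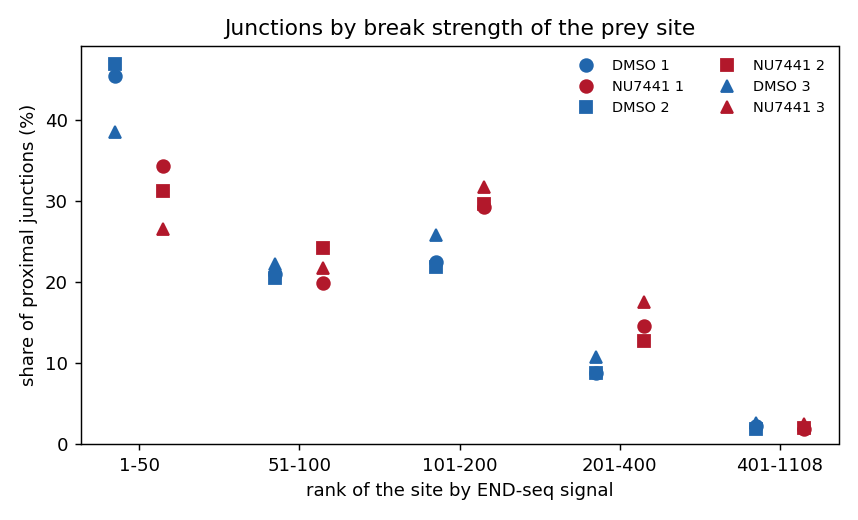
Share of proximal junctions (%, y axis) at AsiSI sites grouped by the rank of their END-seq signal (x axis), 1 point per library, NU7441 in red and DMSO in blue. NU7441 libraries lie below all controls for the 50 strongest sites and above all controls for the 100 and then 200 sites that follow the first 100. Restoring joins are included.

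Over the 258 sites with 10 or more junctions in the 6 libraries, the change per site and the END-seq signal had a Spearman's rho of -0.49, and -0.40, -0.27 and -0.45 in the single pairs. This is a description over sites that share libraries, with restoring joins included. The added 0.5 junctions weigh more in the shallower NU7441 libraries, and with an addition in proportion to depth rho was -0.27.

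The fit per site (limma with trend, pair as a factor) called 31 of the 258 sites at an adjusted p under 0.05, which is 12% of those tested, 20 higher with NU7441 (7.75%) and 11 lower (4.26%). These calls rested on the added 0.5 junctions: with an addition in proportion to depth 0 sites passed, with 41 at an unadjusted p under 0.05, and the median log2 change over sites was 0.04 in place of 0.34. The calls also depended on replicate 2, without which 0 sites passed, and on pair as a factor, without which 2 passed. The values of single sites, with the limma p values of the fit with 0.5 junctions added, are therefore given as a description.

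Of the 10 sites with most junctions, 8 lay on chromosome 2. The site in a UTR exon of Romo1 (ENSMUSG00000067847, motif at chr2:156144260-156144267), a gene for a mitochondrial membrane protein, held 2.80%, 2.41% and 1.77% of proximal junctions with NU7441 and 4.58%, 4.52% and 2.64% in the controls. All 3 pairs were lower (log2 change -0.71, SE 0.17, limma adjusted p = 0.00322). The site 34 bases upstream of Samhd1, a dNTP hydrolase, held 1.16%, 0.74% and 1.33% against 1.91%, 2.81% and 1.95% (-0.996, SE 0.23, limma adjusted p = 0.002). The site in a UTR of Dnmt3b, a de novo DNA methyltransferase, had a log2 change of -0.60 (SE 0.20, limma adjusted p = 0.0343). That in the coding exon of Arhgap11a had one of -0.48 (SE 0.18, limma adjusted p = 0.0555). These 4 sites ranked 3, 20, 35 and 39 by END-seq.

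Other sites of chromosome 2 went the other way. The site in an intron of Pip4k2a, a phosphoinositide kinase, at rank 102, held 1.64%, 1.67% and 2.24% with NU7441 and 0.68%, 1.26% and 1.35% in the controls (log2 change 0.82, SE 0.23, limma adjusted p = 0.0128). The site 167 bases upstream of Usp6nl, at rank 286, gave 0.48%, 0.74% and 1.92% with NU7441 and 0.08%, 0.23% and 0.51% in the controls (1.97, SE 0.34, limma adjusted p = 4.91e-05). The site 53 bases upstream of Arhgap21, at rank 76, had a log2 change of 0.38 (SE 0.20, limma adjusted p = 0.189). The site in an intron of Nup214, a nucleoporin, at rank 51, differed by less than its error (-0.07, SE 0.17, limma adjusted p = 0.86). Of the 10 called sites with the largest changes, 8 were higher with NU7441, and 7 of these 8 had 44 or fewer junctions over the 6 libraries, some with 0 in 2 controls.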

How the data were processed

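HTGTS junction tables were analyzed for 6 libraries (3 NU7441, 3 DMSO) and, for comparison, 20 further AsiSI-MEF libraries of the series. Per the labels and methods, the authors mapped reads to mm10 and filtered duplicates; the deposited tables hold 1 junction per row with read positions and other fields. Cas9-bait and Hi-C samples were not used here. The aligner version is not given in the sources used here. All 1109 listed AsiSI sites hold the motif at the listed position in the reference. Overlap was the number of read bases aligned to both bait and prey. Junctions within 10 kb of the bait were left out, and telomeric prey had 3 or more repeat units. Paired log2 ratios were tested with exact sign-flip tests, with Benjamini-Hochberg adjustment within families, and sites with limma 3.58.1 in R 4.3.3 on log2 shares (0.5 junctions added, 10 or more junctions per site), tested on simulated data. Other steps used Python 3.11.15, pandas 2.3.3, NumPy 2.4.6 and SciPy 1.17.1. Wilson intervals (95%) cover counting error within a library, not variation between libraries, and treat junctions as independent. Junctions were not counted by molecular identifier, and duplicates had been removed before. Sites were listed for naming as the 10 with most junctions and up to 10 called sites by size, with GENCODE genes. Of the called sites listed by size, only that at Usp6nl is named in the text. Members, measures and lists were chosen with earlier results of these data known. Alternatives were another treatment of telomeric, identical, restoring, mismatched or near-bait junctions, thinning (100 draws), other site minimums and additions, and leaving out each replicate.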

Additional observations from a re-analysis of the deposited data

How the results depend on the processing

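Pairing rests on the replicate numbers and on the study's own scaling within replicates. Over 148 sites with 50 or more junctions, same-numbered libraries deviated together with r of 0.26, 0.06 and 0.38, so the numbers were not shown to pair the samples. Without the replicate block, mean log2 ratios are the same by construction (0.97 for motif-restoring joins, exact permutation p = 0.3, where 0.1 is the smallest possible), and 2 sites passed in place of 31.

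Telomeric prey left out turned the mean log2 ratio of insertions to -0.056, insertions of 2 to 4 bases to -0.045, prey on chromosome 2 to 0.017, proximal prey to 0.11 and distal prey to -0.35. Proximal prey alone turned insertions to -0.94 and insertions of 2 to 4, 5 to 9 and 10 to 30 bases to -0.92, -0.71 and -0.81, and distal prey alone turned 1-base insertions to 0.025. Without restoring joins the median bait loss differed by 0.67 bases, the other way. The cause was not tested in any of these.

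Against CK-666, overlaps of 6 or more, blunt joins and restoring joins each had an adjusted p of 0.0635 in the main setting (exact permutation test). The difference in mean log2 ratio passed 0.05 in some alternatives only. With proximal prey alone it did so for overlaps of 6 or more (0.70) and blunt joins (-0.55). Without telomeric prey it did so for overlaps of 6 or more (0.77), blunt joins (-0.38) and restoring joins (0.78). For restoring joins the value and unadjusted p did not change there, only the adjustment over the 4 measures. With identical junctions counted once it did so for blunt (-0.39) and restoring joins (0.85). The difference for insertions turned to -0.72 with proximal prey alone and to -0.11 without telomeric prey.

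Sites called numbered 97 with 2 junctions added, 7 as shares of all junctions away from the bait, 1 as such shares without telomeric prey, 8 with identical junctions counted once, 0 without restoring joins (36 at an unadjusted p under 0.05) and 0 with an addition in proportion to depth. The site at Nup214 turned to 0.039 as a share without telomeric prey and to 0.41 without restoring joins.

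Leaving out 1 replicate at a time changed the direction of mean log2 ratios that were small or mixed over pairs. Insertions ranged from -0.15 to 0.34, insertions of 2 to 4 bases from -0.26 to 0.72, overlaps of 3, 5 and 6 bases from -0.41 to 0.50, -0.35 to 0.49 and -0.13 to 0.22, prey on chromosome 2 from -0.35 to 0.13, proximal prey from -0.36 to 0.18 and distal prey from -0.60 to 0.58. Among joins without an intact motif, blunt joins ranged from -0.24 to 0.12 and overlaps of 2 bases from -0.24 to 0.081. The second 50 sites ranged from -0.057 to 0.10, the weakest sites from -0.16 to 0.014, the site at Nup214 from -0.18 to 0.012, and sites called from 0 to 13. Against CK-666, the difference ranged from -0.20 to 0.29 for insertions, from -0.83 to -0.56 for an overlap of 1 base and from 0.67 to 1.12 for 3 to 5 bases, the last 2 with adjusted p of 0.0536 to 0.107 (exact permutation test).

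Motif-restoring joins, overlaps of 1 and of 3 to 5 bases and flush joins without an intact motif, and the share of the 50 strongest sites kept their direction under every alternative run. Leaving out telomeric prey or the replicate block could not change these means. Thinning took junctions after duplicate removal, so these alternatives do not separate depth from treatment. Depth limits the insertions, long losses and single sites of NU7441 replicate 2 most, with 540 proximal junctions.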
